A study of Mus musculus with 6 samples.

Results

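The BCL2 family decides at the mitochondrial outer membrane whether a cell lives or enters apoptosis, and 10 of its genes are described here in haematopoietic stem cells of the mouse, from which all blood cells descend. The members are the rows of the deposited expression table whose symbol is Bcl2, Mcl1, Bcl2l1, Bax, Bak1, Bcl2l11, Bbc3, Pmaip1, Bid or Bmf. Each symbol matched a single row, which gives 10 of 52183 genes. Stem cells were purified by flow cytometry from bone marrow of 4-month-old female mice, and 2 ng of their RNA went into each library. There were 3 libraries labelled Thbs1 knockout and 3 labelled control, and the comparison asks which transcripts differ when Thbs1, which encodes the secreted matrix glycoprotein thrombospondin 1, is deleted. The labels give neither the strain nor the kind of deletion, and they do not say whether a library came from 1 animal or from a pool. A p-value given here therefore measures no more than how these libraries vary, which may be a technical spread.

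The family has 3 kinds of member. Anti-apoptotic proteins such as BCL2, BCL-XL and MCL1 hold the effectors BAX and BAK in check. When the effectors are set free they open pores in the outer membrane, cytochrome c leaks into the cytosol and caspases are activated. BH3-only proteins are the sensors: each responds to its own kind of stress and either blocks the anti-apoptotic proteins or activates the effectors directly. In mice, loss of Mcl1 depletes haematopoietic stem cells, so survival of these cells is known to depend on that member. Much of the control acts on protein stability, cleavage and location, which transcript levels do not show.

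Thbs1 itself did not separate the labels. It was read at 10.8, 8.50 and 7.68 FPKM in libraries labelled knockout, against 4.12, 13.8 and 2.33 FPKM in controls, and limma gave an adjusted p of 0.503 for a log2 change of 0.65 ± 0.43 SE. FPKM counts fragments per kilobase of exon, scaled to the depth of the library, so levels of different genes can be set side by side. Control library 2 decided this result, since leaving it out gave a log2 change of 1.26 with an adjusted p of 0.0343, and directions below follow the labels alone. Depths read from the steps of the FPKM values lay between 25740000 and 30890000 reads in the libraries labelled knockout and between 22730000 and 25910000 in controls. All 10 markers of haematopoietic stem cells that were looked up were present, with summed levels of 683 to 774 FPKM in libraries labelled knockout and 696 to 782 FPKM in controls, and 1 of them, Ly6a, was called lower (adjusted p = 0.0286). Of the markers of other bone marrow cells none was at 0 in every library, while the B cell genes Cd79a, Ebf1, Ms4a1 and Pax5, the T cell genes Cd3d, Cd3e and Cd3g and the stromal and endothelial genes Cdh5, Col1a1, Cxcl12 and Lepr stayed below 1 FPKM in all 6 libraries. So did the monocyte genes Adgre1, Csf1r and Ly6c2 and the neutrophil genes Camp, Ltf, Ngp and S100a9. Other markers of the same cell types were read, among them the monocyte gene Lyz2 at 325 to 359 FPKM in libraries labelled knockout and 343 to 383 FPKM in controls. The neutrophil gene Prtn3 lay at 58.5 to 68.5 FPKM in libraries labelled knockout and 67.2 to 93.5 FPKM in controls, the endothelial gene Pecam1 at 7.95 to 9.73 FPKM in libraries labelled knockout and 9.68 to 11.3 FPKM in controls, and the stromal gene Col1a2 at up to 1.96 FPKM.

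None of the 10 BCL2 family genes passed the test between the groups, and Bbc3, which encodes the BH3-only protein PUMA, came nearest. Bbc3 averaged 10.6 ± 0.889 FPKM in libraries labelled knockout and 7.11 ± 0.993 FPKM in controls (SD, n = 3 each), a ratio of 1.49. Transcripts of the anti-apoptotic genes Mcl1 and Bcl2l1 and of the BH3-only genes Bid and Bcl2l11 overlapped between the groups. Bcl2 and Bak1 lay lower in every library labelled knockout than in every control, also without passing the test. In bulk RNA of sorted cells, fewer cells of a type and less RNA per cell cannot be told apart. Of the 8 members that reached 1 FPKM in at least 3 libraries and were tested with limma on log2(FPKM + 1), 0 had an adjusted p below 0.05 and 1, Bbc3, had an unadjusted p below 0.05. Over all 12555 tested genes, 1.56% were called and 16.4% had an unadjusted p below 0.05. The groups did not overlap for 3 of the 8 tested members, Bbc3, Bcl2 and Bak1, where 22.8% of all tested genes did not overlap. The median log2 change of the 8 members was 0.03, beside 0.01 for all tested genes.

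**Figure D1:**
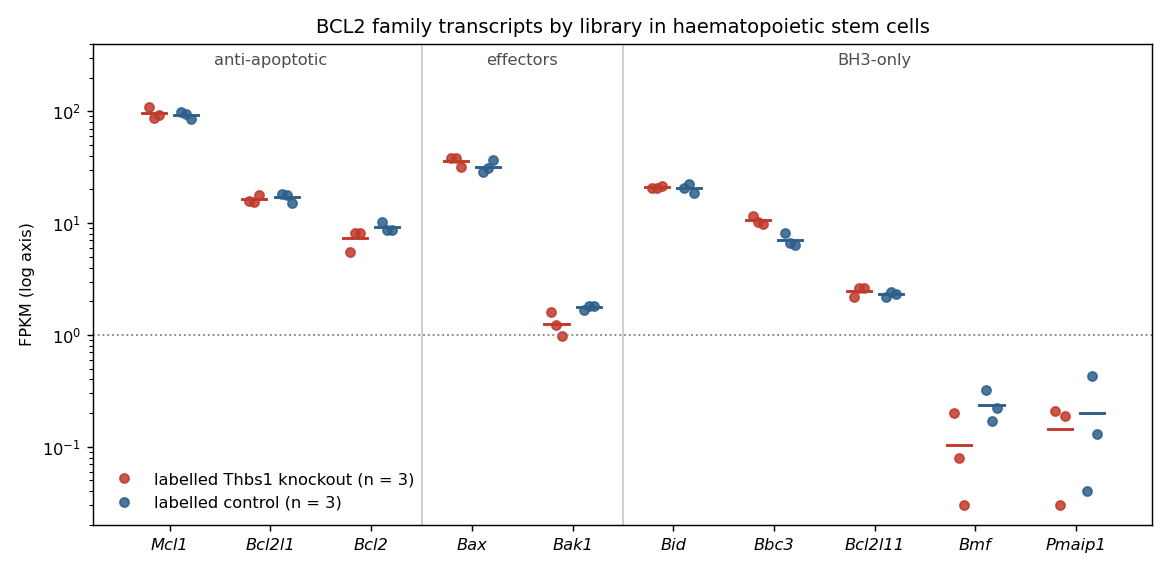
FPKM of the 10 BCL2 family genes on a log axis, with a point for each of 3 libraries labelled knockout (left of each pair) and 3 labelled control (right), and a line at each mean. Mcl1 stands near 100 FPKM in both groups, Bmf and Pmaip1 stay below the dotted line at 1 FPKM, and Bbc3 is the gene whose libraries labelled knockout all lie above the controls.

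Among the anti-apoptotic genes, Mcl1 (ENSMUSG00000038612, chromosome 3, 95658788 to 95663176, GRCm38) gave the highest level of the family. Its protein is short-lived and binds BIM, NOXA and BAK. Mcl1 stood at 108, 86.4 and 92.5 FPKM in libraries labelled knockout, against 98.3, 94.9 and 86.0 FPKM in controls. The ranges overlapped almost fully, and Mcl1 lay above 95.3% of the tested genes. The log2 change was 0.04 ± 0.09 SE (adjusted p = 0.893), with a 95% interval from -0.17 to 0.25, and its sign turned when library 1 labelled knockout or control library 3 was left out. Each value of Mcl1 rests on 6684 to 11439 reads, and the spread between libraries limits the comparison more than counting does.

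Bcl2l1 (ENSMUSG00000007659, chromosome 2, 152780668 to 152831728), which encodes BCL-XL, a survival factor of platelets and erythroid cells, came second among the anti-apoptotic genes. It was read at 15.8, 15.6 and 17.9 FPKM in libraries labelled knockout, against 18.1, 17.9 and 15.1 FPKM in controls. High and low libraries occurred in both groups, and the log2 change was -0.05 ± 0.10 SE (adjusted p = 0.860, 95% interval -0.27 to 0.17), or -0.04 relative to the shift of all genes by 0.19 after rescaling to TPM, where the unshifted value was 0.15. Bcl2 (ENSMUSG00000057329, chromosome 1, 106538178 to 106714274), the founding member, had the lowest level of the anti-apoptotic genes. It was read at 5.54, 8.22 and 8.15 FPKM in libraries labelled knockout, against 10.3, 8.60 and 8.67 FPKM in controls. Every library labelled knockout lay below every control, but the nearest values, 8.22 and 8.60 FPKM, were close, and library 1 labelled knockout lay well below the other two. The log2 change of Bcl2 was -0.31 ± 0.15 SE (adjusted p = 0.339, 95% interval -0.64 to 0.02), and the exact two-sided permutation p was 0.1, the smallest that 3 libraries against 3 allow. Without library 1 labelled knockout the log2 change of Bcl2 was -0.14 (adjusted p = 0.600). An antisense gene, D630008O14Rik, shares 558 of the 9157 exon bases of Bcl2 and stayed at or below 0.62 FPKM.

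The effectors stood far apart in level. Bax (ENSMUSG00000003873, chromosome 7, 45461697 to 45466898), which moves from cytosol to mitochondria on activation, was read at 38.6, 38.5 and 31.8 FPKM in libraries labelled knockout, against 28.6, 30.9 and 36.7 FPKM in controls. The mean was higher in the libraries labelled knockout but the ranges overlapped (log2 change 0.18 ± 0.11 SE, adjusted p = 0.472, 95% interval -0.07 to 0.42), and the change of Bax lay between 0.10, without control library 1, and 0.27, without control library 3. Bak1 (ENSMUSG00000057789, chromosome 17, 27019810 to 27029009), whose product sits in the outer membrane before any stimulus, was read at 1.59, 1.23 and 0.97 FPKM in libraries labelled knockout, against 1.67, 1.82 and 1.83 FPKM in controls. Here every library labelled knockout was below every control, with 60 to 118 reads behind each value (log2 change -0.30 ± 0.17 SE, adjusted p = 0.408, 95% interval -0.67 to 0.07, exact two-sided permutation p = 0.1). The scale of log2(FPKM + 1) understates changes at this level: with a pseudocount of 0.1 the log2 change was -0.48 (adjusted p = 0.421), and the ratio of the means was 0.712. Bax was 24.3, 31.3 and 32.7 times the level of Bak1 in the libraries labelled knockout, against 17.1, 17.0 and 20.1 times in controls. Ggnbp1, on the other strand, shares 437 of the 2407 exon bases of Bak1 and was read at 0.55 to 0.87 FPKM, so part of the Bak1 signal could belong to it: strand was not kept by the kit.

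Bbc3 (ENSMUSG00000002083, chromosome 7, 16308393 to 16318205) encodes PUMA, a BH3-only protein that binds all anti-apoptotic members and is a classical target of p53 and of FOXO3. Its level was 11.6, 10.3 and 9.91 FPKM in libraries labelled knockout, against 8.24, 6.69 and 6.39 FPKM in controls. All libraries labelled knockout lay above all controls, and the gap between the nearest pair exceeded the SD of either group. The log2 change was 0.52 ± 0.11 SE, with a 95% interval from 0.26 to 0.78. With the unadjusted p at 0.00123, the p adjusted over all tested genes was 0.0645 by limma, above the threshold of 0.05, and the exact two-sided permutation p was 0.1. Between 542 and 762 reads lay behind the values of libraries labelled knockout and between 308 and 453 behind those of controls. Whether Bbc3 passed depended on the settings: among the 8175 genes with a mean of at least 5 FPKM its limma adjusted p was 0.0370. Without a minimum level it was 0.252, without a trend 0.104 and with the replicate number as a block 0.0854. After rescaling to TPM it was 0.0157, where all genes shifted together by a median of 0.19 and Bbc3 stood 0.56 above that shift. With a library left out its adjusted p lay above 0.05 each time, and the log2 change kept its sign.

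Summed levels of the markers of 3 other cell types did not overlap between the groups. Each of these sums came mostly from its top gene, and 22.8% of all tested genes did not overlap. Over 6 T and NK cell markers they were 52.2 to 64.6 FPKM in libraries labelled knockout and 74.4 to 101 FPKM in controls. Nearly all of it came from Nkg7, a gene of cytotoxic granules, which fell (limma adjusted p = 0.0332). Klrb1c overlapped, at 2.43 to 3.27 FPKM in libraries labelled knockout and 2.30 to 2.44 FPKM in controls (limma adjusted p = 0.655). Gzma went the other way, at 1.16, 0.61 and 0 FPKM in libraries labelled knockout and 0 FPKM in every control. The 5 megakaryocyte markers summed to 253 to 358 FPKM in libraries labelled knockout and to 371 to 471 FPKM in controls. Of these, Pf4 did not overlap, at 159 to 245 FPKM in libraries labelled knockout and 270 to 354 FPKM in controls (limma adjusted p = 0.0594). Itga2b, Gp9, Gp1ba and Ppbp overlapped between the groups. The 7 B cell markers summed to 24.2 to 27.8 FPKM in libraries labelled knockout and to 28.9 to 31.1 FPKM in controls. Most of it came from Cd79b, which was not called (limma adjusted p = 0.239). The erythroid sum, led by Car1, overlapped at 46.3 to 115 FPKM in libraries labelled knockout and 83.55 to 102 FPKM in controls. The globin gene Hbb-bt fell, with 3.54, 4.43 and 4.20 FPKM in libraries labelled knockout against 11.95, 12.4 and 19.98 FPKM in controls (limma adjusted p = 0.00247). The globin genes Hbb-bs and Hba-a1 overlapped (limma adjusted p = 0.352 and 0.599). Klf1 also overlapped, at 12.2 to 13.4 FPKM in libraries labelled knockout and 7.43 to 13.3 FPKM in controls. Neutrophil markers (61.3 to 72.8 FPKM in libraries labelled knockout, 71.15 to 97.2 FPKM in controls), monocyte markers (341 to 371 FPKM in libraries labelled knockout, 361 to 403 FPKM in controls) and endothelial and stromal markers (10.1 to 11.6 FPKM in libraries labelled knockout, 10.7 to 13.4 FPKM in controls) overlapped in sum. Their part in the difference of Bbc3, Bcl2 or Bak1 was not tested.

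Start regions of the family were searched for the motifs of transcription factors in the lists below, because Bbc3 has several annotated starts and the called factors include MYC. RefSeq (GRCm38.p6) gave 16 windows for 9 of the 10 members, each from 250 bases before a start to 50 after it. The letters CACGTG, the E-box bound by MYC and other factors, occurred in 2 of the 16 windows and in 7.15% of all 32851 windows. The 2 windows were 1 of the 3 of Bbc3 and the single window of Bax. Both are printed 5′ to 3′ on the strand of the gene, with the motif matches in capitals, and the end of each reads as a GENCODE transcript of its gene does. A shorter stretch, before another start of Bbc3 and in no GENCODE exon of it, holds the FOXO letters TTGTTTAC, which 1.23% of all windows hold.
Bbc3, chr7:16310181-16310480, plus strand, CACGTG in capitals: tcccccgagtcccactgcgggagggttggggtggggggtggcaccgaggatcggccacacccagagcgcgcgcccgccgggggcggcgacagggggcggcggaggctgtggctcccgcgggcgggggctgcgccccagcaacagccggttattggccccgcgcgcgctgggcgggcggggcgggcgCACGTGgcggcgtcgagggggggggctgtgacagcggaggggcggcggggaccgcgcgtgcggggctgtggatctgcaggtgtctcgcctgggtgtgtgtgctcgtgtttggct
Bbc3, chr7:16310067-16310126, plus strand, TTGTTTAC in capitals: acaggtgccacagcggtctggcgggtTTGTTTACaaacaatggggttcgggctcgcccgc
Bax, chr7:45466849-45467148, minus strand, CACGTG and a p53 half-site in capitals: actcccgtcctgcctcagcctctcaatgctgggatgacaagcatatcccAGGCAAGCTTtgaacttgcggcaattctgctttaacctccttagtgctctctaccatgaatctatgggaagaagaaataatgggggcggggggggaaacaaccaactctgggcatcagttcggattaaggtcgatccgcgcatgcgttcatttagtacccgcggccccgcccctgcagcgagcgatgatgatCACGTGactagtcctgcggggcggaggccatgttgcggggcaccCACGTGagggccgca
In Bbc3 the E-box begins 64 bases before its start and the FOXO letters 168 bases before theirs. Bax carries CACGTG in 2 places, beginning 9 bases before the start and 35 after it, and a p53 half-site 201 bases before it. Both strands were searched, and no match of one motif overlapped one of another. The p53 half-site was present in 8.36% of all windows and in 1 further member, Bmf, but in no window of Bbc3. RUNX letters TGTGGT lay in a window of Bmf and in that of Bak1, and in 16.8% of all windows. Neither the EGR1 letters GCGTGGGCG nor the STAT letters TTCNNNGAA lay in a window of a member, and they occurred in 0.612% and 8.30% of all windows. Expression values are summed over all exons of a gene, so they do not show which start was used.

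The other BH3-only genes ranged from Bid, in the upper part of the tested genes, to Bmf and Pmaip1, below the level needed for a test. Bid (ENSMUSG00000004446, chromosome 6, 120891930 to 120916853), which caspase 8 cleaves to link death receptors to mitochondria, was the highest of them at 20.5, 20.8 and 21.3 FPKM in libraries labelled knockout, against 20.5, 22.4 and 18.7 FPKM in controls. The libraries labelled knockout lay within the range of the controls (log2 change 0.03 ± 0.08 SE, adjusted p = 0.914, 95% interval -0.16 to 0.22). Exons of Bid and of its neighbour Bcl2l13 on the other strand share 628 bases, so reads there cannot be assigned to either. Bcl2l11 (ENSMUSG00000027381, chromosome 2, 128126038 to 128162547) encodes BIM, which kills cells deprived of cytokines. It was read at 2.19, 2.64 and 2.62 FPKM in libraries labelled knockout, against 2.18, 2.44 and 2.31 FPKM in controls (log2 change 0.07 ± 0.14 SE, adjusted p = 0.850, 95% interval -0.23 to 0.38), which overlapped.

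Bmf and Pmaip1 did not reach 1 FPKM in any library and were not tested. Bmf (ENSMUSG00000040093, chromosome 2, 118528757 to 118549687), a sensor of cytoskeletal stress and loss of attachment, was read at 0.20, 0.08 and 0.03 FPKM in libraries labelled knockout, against 0.32, 0.17 and 0.22 FPKM in controls. That corresponds to between 4 and 44 reads a library, and the ranges overlapped. Pmaip1 (ENSMUSG00000024521, chromosome 18, 66458533 to 66465565), which encodes NOXA, a p53 target that drives MCL1 to degradation, was read at 0.21, 0.03 and 0.19 FPKM in libraries labelled knockout, against 0.04, 0.43 and 0.13 FPKM in controls. With 2 to 27 reads a library, neither gene could show a moderate difference at this depth. When genes were tested without a minimum level, the adjusted p was 0.698 for Bmf and 0.850 for Pmaip1.

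Of the 10 members 3 lie on the same chromosome as Thbs1. Bmf lies 0.402 Mb beyond the end of Thbs1, Bcl2l11 9.999 Mb and Bcl2l1 34.7 Mb. Between Thbs1 and Bmf 2 genes were tested and 0 called by limma, while between Thbs1 and Bcl2l11 3 were higher and 9 lower of 109 tested (11.01%) and between Thbs1 and Bcl2l1 6 higher and 13 lower of 233 tested (8.15%), beside 1.56% of all tested genes. These stretches are nested, so the genes before Bcl2l11 are counted again in the stretch up to Bcl2l1. The coding genes next to Bmf that could be tested are Srp14, of the signal recognition particle, and Bub1b, of the spindle checkpoint. Srp14 averaged 152 FPKM in libraries labelled knockout and 147 FPKM in controls (adjusted p = 0.833), and Bub1b averaged 26.7 FPKM in libraries labelled knockout and 28.0 FPKM in controls (adjusted p = 0.811). Beside Bcl2l1, Cox4i2, which encodes a subunit of cytochrome c oxidase, was read at 3.04, 2.78 and 4.19 FPKM in libraries labelled knockout, against 7.48, 5.22 and 5.76 FPKM in controls, without overlap (log2 change -0.72 ± 0.16 SE, adjusted p = 0.0704). The other neighbours, Tpx2 of Bcl2l1 and Bub1 and Anapc1 of Bcl2l11, had adjusted p of 0.660, 0.843 and 0.998. Neither of the chromosome 2 members that were tested was called.

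**Figure D2:**
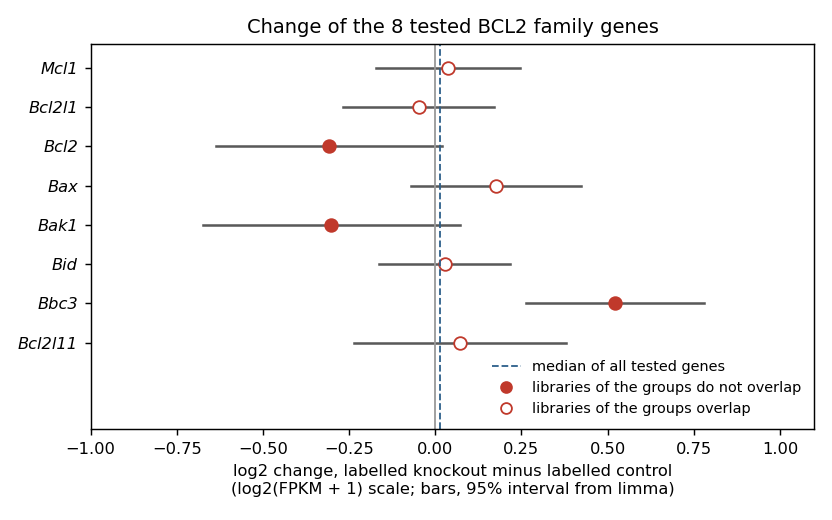
Log2 change, labelled knockout minus labelled control, of the 8 tested BCL2 family genes, with 95% intervals from limma. Filled points mark genes whose groups do not overlap (Bcl2, Bak1, Bbc3), and the interval of Bbc3, from 0.26 to 0.78, is the one that leaves out 0.

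Summed by role, the anti-apoptotic transcripts were level between groups. Mcl1, Bcl2l1 and Bcl2 together gave 130, 110.2 and 119 FPKM in libraries labelled knockout, against 127, 121 and 109.8 FPKM in controls. Mcl1 made up between 78.0% and 83.6% of this sum in the libraries labelled knockout and between 77.6% and 78.4% in controls. Bax and Bak1 together gave 40.2, 39.7 and 32.7 FPKM in libraries labelled knockout, against 30.2, 32.8 and 38.5 FPKM in controls, and the ranges overlapped.

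The 5 BH3-only genes together gave 34.7, 33.9 and 34.1 FPKM in libraries labelled knockout, against 31.2, 32.2 and 27.7 FPKM in controls, without overlap. Without Bbc3 the same sum was 23.1, 23.6 and 24.2 FPKM in libraries labelled knockout, against 23.0, 25.5 and 21.3 FPKM in controls, and the groups overlapped. Bbc3 made up 33.4%, 30.4% and 29.1% of the BH3-only sum in the libraries labelled knockout, against 26.4%, 20.8% and 23.1% in controls. Mcl1 stood at 9.33, 8.38 and 9.34 times the level of Bbc3 in the libraries labelled knockout, against 11.9, 14.2 and 13.5 times in controls. The anti-apoptotic sum was 1.73, 1.50 and 1.77 times the sum of effectors and BH3-only genes in the libraries labelled knockout, against 2.06, 1.87 and 1.66 times in controls, which overlapped. These sums carry no test, because the members were chosen with results of these data known.

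**Figure D3:**
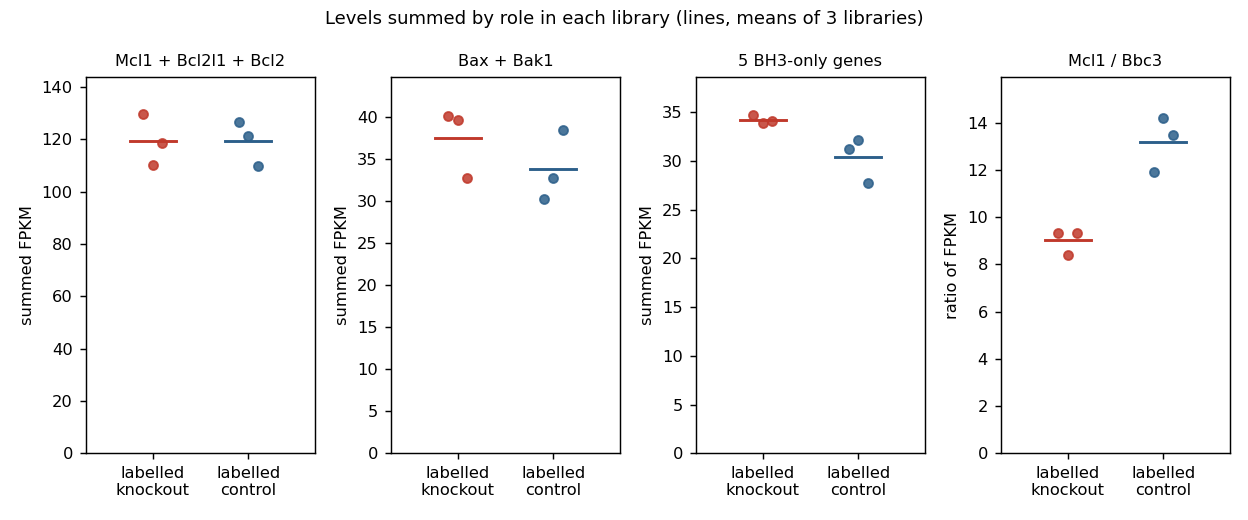
Summed FPKM of the anti-apoptotic genes, the effectors and the BH3-only genes, and the ratio of Mcl1 to Bbc3, in each library labelled knockout (left) and labelled control (right), with lines at the means. The anti-apoptotic and effector sums overlap between groups. The BH3-only sum and the ratio do not, but both contain Bbc3, and the BH3-only sum overlaps when Bbc3 is left out.

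Other genes of the family gave no called member either. Of 15 further BCL2 relatives 8 were tested. Limma called 0, beside 1.56% of all tested genes, and the unadjusted p lay below 0.05 for 1, beside 16.4%. That gene was Bok, an effector-like relative, at 4.38 ± 0.554 FPKM in libraries labelled knockout and 3.33 ± 0.512 FPKM in controls (adjusted p = 0.304). Bcl2l14 stood at 0.670 ± 0.147 FPKM in libraries labelled knockout and 1.16 ± 0.126 FPKM in controls, but it entered the test through the control libraries alone, so a difference was built in. Bcl2l2, which encodes BCL-W, stood at 1.44 ± 0.291 FPKM in libraries labelled knockout and 1.91 ± 0.475 FPKM in controls (adjusted p = 0.543). Bnip3l, which encodes the mitophagy receptor NIX, had the highest level of these relatives, at 53.8 ± 3.24 FPKM in libraries labelled knockout and 49.6 ± 3.61 FPKM in controls (adjusted p = 0.517). The near-identical copies Bcl2a1a, Bcl2a1b and Bcl2a1d, between which reads may be split, stayed below 1 FPKM except for Bcl2a1a in control library 2 at 1.32 FPKM. Bcl2l10 was listed at 0 in all libraries.

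Downstream of the pores, apoptosome and caspase genes were not called. The median log2 change of the 13 tested was 0.10, beside 0.01 for all tested genes. Limma called 0 of the 13, beside 1.56% of all tested genes, and 3 had an unadjusted p below 0.05, beside 16.4%. The 3 were Diablo, whose product SMAC is released with cytochrome c and blocks inhibitors of apoptosis, Dffa, the inhibitor of the caspase-activated nuclease, and Endog, a mitochondrial nuclease. Diablo stood at 13.7 ± 0.641 FPKM in libraries labelled knockout and 11.2 ± 0.965 FPKM in controls (adjusted p = 0.182), and Dffa at 17.6 ± 1.41 FPKM in libraries labelled knockout and 14.5 ± 1.45 FPKM in controls (adjusted p = 0.225). Endog stood at 3.95 ± 0.190 FPKM in libraries labelled knockout and 2.95 ± 0.529 FPKM in controls (adjusted p = 0.267), though it shares 379 of its 1063 exon bases with Spout1 on the other strand. Inhibitors of apoptosis were not called: limma called 0 of 8 tested, with an unadjusted p below 0.05 for 0, beside the same shares. Birc6 (2.62 ± 0.392 FPKM in libraries labelled knockout and 3.11 ± 0.265 FPKM in controls), Birc2 (16.4 ± 1.06 FPKM in libraries labelled knockout and 18.2 ± 2.52 FPKM in controls), Birc5, also a mitotic protein (41.1 ± 3.44 FPKM in libraries labelled knockout and 38.3 ± 2.69 FPKM in controls), and Xiap (3.60 ± 0.370 FPKM in libraries labelled knockout and 4.03 ± 0.365 FPKM in controls) had the smallest unadjusted p of that list.

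Genes of the death receptor arm, the route that BID joins to mitochondria, were not called either. Limma called 0 of 11 tested, beside 1.56% of all tested genes. The unadjusted p lay below 0.05 for 4 of the 11, whose groups did not overlap, beside 16.4% and 22.8% of all tested genes. Tradd, an adaptor of TNF receptor 1, stood at 33.7 ± 2.94 FPKM in libraries labelled knockout and 25.5 ± 1.28 FPKM in controls (log2 change 0.38 ± 0.08 SE, adjusted p = 0.0635). Like Bbc3, Tradd passed among genes with a mean of at least 5 FPKM (adjusted p = 0.0356) and after rescaling to TPM (adjusted p = 0.00813). Mlkl, the pore former of necroptosis, was read at 20.97 ± 2.74 FPKM in libraries labelled knockout and 27.8 ± 2.21 FPKM in controls (adjusted p = 0.112). Fadd, the adaptor that recruits caspase 8, stood at 4.02 ± 0.299 FPKM in libraries labelled knockout and 5.45 ± 0.434 FPKM in controls (adjusted p = 0.160), and Cflar, which encodes the caspase 8 inhibitor FLIP, at 4.94 ± 0.492 FPKM in libraries labelled knockout and 6.35 ± 0.515 FPKM in controls (adjusted p = 0.220). Casp8 itself stood at 60.2 ± 2.58 FPKM in libraries labelled knockout and 61.4 ± 3.06 FPKM in controls, and was picked with its values in view, as the protease that cleaves BID. Of 8 tested genes that control the stability of MCL1 or BIM limma called 0, and the unadjusted p lay below 0.05 for 2. Over all tested genes these shares were 1.56% and 16.4%. Ube2s, a ubiquitin-conjugating enzyme, stood at 13.6 ± 0.725 FPKM in libraries labelled knockout and 11.4 ± 0.993 FPKM in controls (adjusted p = 0.258), and the kinase gene Gsk3a at 19.3 ± 0.598 FPKM in libraries labelled knockout and 21.8 ± 0.872 FPKM in controls (adjusted p = 0.297). Huwe1, a ubiquitin ligase of MCL1, stood at 5.25 ± 0.411 FPKM in libraries labelled knockout and 6.34 ± 0.601 FPKM in controls (adjusted p = 0.351), and Gsk3b, whose kinase marks MCL1 for degradation, at 5.38 ± 1.04 FPKM in libraries labelled knockout and 6.55 ± 0.841 FPKM in controls (adjusted p = 0.429).

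Called genes were found among the partners of the family at membranes and in the cytoskeleton. Of 11 tested partners 1 rose, 1 fell and 9 were not called, beside 0.566% higher and 0.996% lower of all tested genes. The partners were chosen with earlier results of these data known, so their share of calls cannot be read as a surplus over all genes. Dynll1 (ENSMUSG00000009013, chromosome 5, 115297110 to 115300999), which encodes the dynein light chain that tethers BIM to microtubules, was read at 76.4, 71.9 and 69.2 FPKM in libraries labelled knockout, against 43.1, 44.9 and 50.3 FPKM in controls. The groups were well apart, and the gene rose by 0.64 ± 0.08 SE on the log2 scale (limma adjusted p = 0.00446). Its relative Dynll2, whose product tethers BMF to the actin cytoskeleton, stood at 19.6 ± 2.38 FPKM in libraries labelled knockout and 21.9 ± 2.12 FPKM in controls without passing the test (adjusted p = 0.529). Tmbim6 (ENSMUSG00000023010, chromosome 15, 99392882 to 99410049), which encodes BAX inhibitor 1, a membrane protein of the endoplasmic reticulum that protects from BAX-induced death, was read at 65.3, 57.8 and 58.9 FPKM in libraries labelled knockout, against 84.0, 88.2 and 88.1 FPKM in controls. All libraries labelled knockout lay below all controls, and the gene fell by 0.51 on the log2 scale with an SE of 0.07 (limma adjusted p = 0.00943). Without library 2 labelled knockout the adjusted p of Tmbim6 was 0.0546. Bag3, a co-chaperone, stood at 7.16 ± 1.41 FPKM in libraries labelled knockout and 6.12 ± 0.639 FPKM in controls (adjusted p = 0.565).

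**Figure D4:**
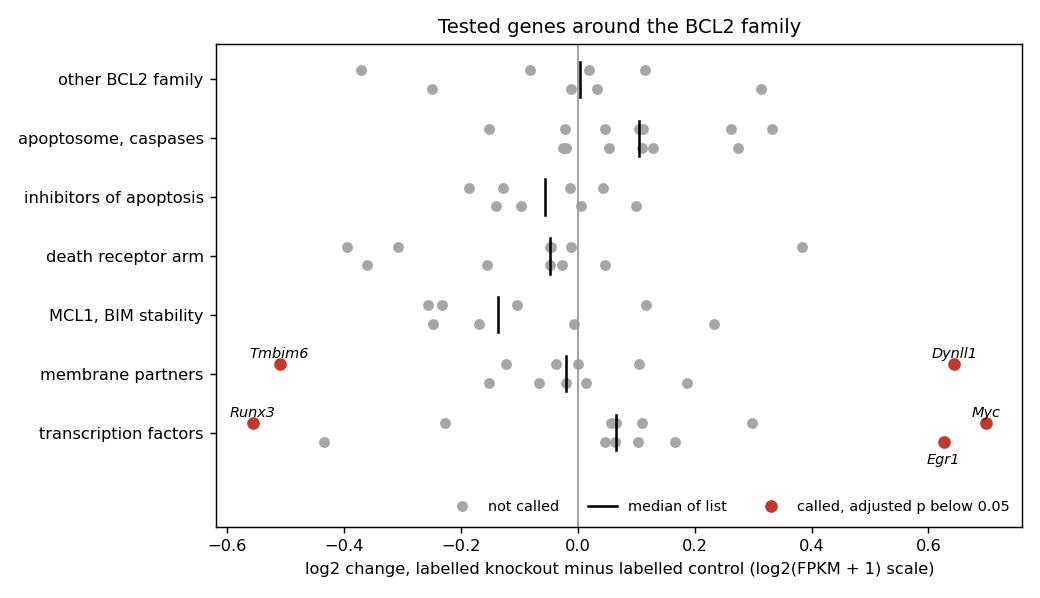
Log2 change, labelled knockout minus labelled control, of the tested genes in 7 lists around the BCL2 family, with a bar at each list's median and called genes named. The 5 called genes, Dynll1, Tmbim6, Myc, Egr1 and Runx3, lie in 2 of the lists.

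Transcription factors that act on BH3-only genes held the other calls. Of 13 tested 2 rose, 1 fell and 10 were not called, beside 0.566% higher and 0.996% lower of all tested genes. This list too was chosen with earlier results known, so its share of calls cannot be read as a surplus. Myc, which promotes growth and sensitises cells to apoptosis, was read at 387, 423 and 400.1 FPKM in libraries labelled knockout, against 273, 248 and 225 FPKM in controls (log2 change 0.70 ± 0.08 SE, limma adjusted p = 0.00446). Egr1, an immediate early factor, was read at 15.6, 18.7 and 15.7 FPKM in libraries labelled knockout, against 11.9, 9.83 and 9.67 FPKM in controls (log2 change 0.63 ± 0.11 SE, adjusted p = 0.0286). Neither gene overlapped between groups.

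Runx3 (ENSMUSG00000070691, chromosome 4, 135120652 to 135177990), a RUNX factor known to act on Bcl2l11 in other cells, was read at 8.33, 8.16 and 9.57 FPKM in libraries labelled knockout, against 12.2, 13.1 and 14.4 FPKM in controls. It fell by 0.56 on the log2 scale with an SE of 0.10 (limma adjusted p = 0.0327). Leaving out any of the 6 libraries ended the call of Runx3, with adjusted p between 0.0563 and 0.117. For Egr1 the call ended without library 1, 2 or 3 labelled knockout or control library 2 or 3, with adjusted p up to 0.104.

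The factors best known for acting on Bbc3 were not called. Trp53, which encodes p53, stood at 102 ± 3.68 FPKM in libraries labelled knockout and 94.9 ± 6.62 FPKM in controls (adjusted p = 0.528). Foxo3 stood at 6.84 ± 0.712 FPKM in libraries labelled knockout and 8.18 ± 0.802 FPKM in controls (adjusted p = 0.358). Ddit3, which encodes the stress factor CHOP, stood at 13.9 ± 1.49 FPKM in libraries labelled knockout and 11.2 ± 1.87 FPKM in controls (adjusted p = 0.282). Trp53, Foxo3 and Ddit3 lie outside the rule for named genes and were picked with their values in view. Foxo4, at 0.510 ± 0.151 FPKM in libraries labelled knockout and 1.03 ± 0.0153 FPKM in controls (adjusted p = 0.280), entered the test through the control libraries alone. Myc and Egr1 were higher and Runx3 lower in the libraries labelled knockout, the group in which Bbc3 was also higher. The part of these factors in the level of Bbc3 was not tested.

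**Figure D5:**
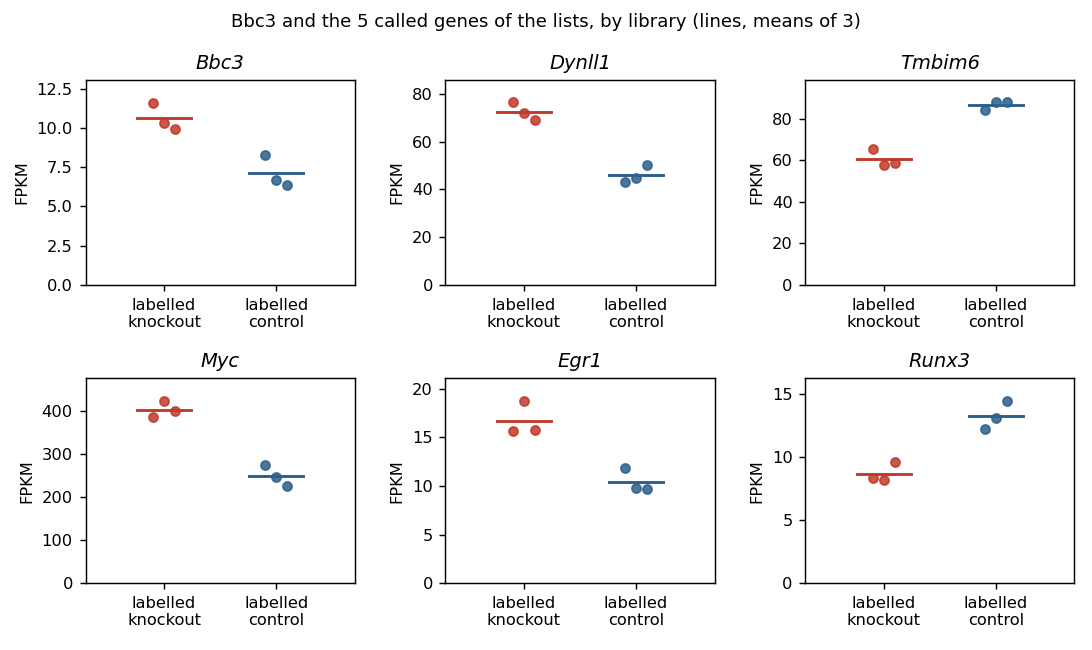
FPKM of Bbc3 and of the 5 called genes of the lists in each library labelled knockout (left) and labelled control (right), with lines at the means and axes from 0. In each panel the groups do not overlap: Bbc3, Dynll1, Myc and Egr1 are higher in the libraries labelled knockout, and Tmbim6 and Runx3 lower.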

How the data were processed

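The deposited table holds FPKM made by the authors, 1 column for each of 6 libraries, with 2 decimals. Per the labels' protocols, 2 ng of total RNA entered SMART-Seq v4, a full-length kit that does not keep strand. Tools in the submitters' processing notes are STAR, FastQC 0.11.5 and edgeR, with no role, and the builds GRCm38 and mm10. The sources used here do not give the annotation or how reads were counted. All 52183 identifiers matched GENCODE M21 (GRCm38), which gave positions and merged exon lengths.

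Depth was the library size that made FPKM of genes of 50 to 400 exon bases whole reads, and 99.4% to 99.7% were whole within 0.1 read. Read numbers of members follow from it, are approximate, and cover counting error only.

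Tests covered genes that reached 1 FPKM in 3 or more libraries and used limma 3.58.1 on log2(FPKM + 1) (R 4.3.3; eBayes with trend, two-sided) and Benjamini-Hochberg adjustment over 12555 genes. Changes are libraries labelled knockout minus control, and a pseudocount of 1 understates those of low genes. FPKM are not counts, so no count model was used.

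Members, lists and tests were chosen with earlier results of these data known. Named genes were the members, Thbs1, and in each list without members the called genes and, up to 4 in all, those with the smallest unadjusted p. A gene that this rule selected is not reported here. Genes chosen otherwise are said to be so or appear as neighbours, markers or relatives at the edges of the range. No 2 libraries were copies: within a group at most 0.470% of tested genes had identical values.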

Additional observations from a re-analysis of the deposited data

How the results depend on the processing

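By limma, the libraries labelled knockout had 71 genes higher and 125 lower, and 0 of 8 tested BCL2 family members were called. Without a minimum level 8 were higher and 16 lower (35246 genes tested). With a mean of at least 5 FPKM 112 were higher and 151 lower (8175 genes tested). Without a trend 24 were higher and 65 lower. TPM gave 2016 higher and 128 lower (15277 genes tested), so 94.0% of calls were higher in place of 36.2%. All genes shifted by a median of 0.19 there, and the TPM p-values test against 0, not against that shift. Leaving out a library gave 16 to 38 higher and 43 to 77 lower, with fewer libraries in the test. With the replicate number as a block 27 were higher and 54 lower, but the numbers did not pair the libraries: same-numbered libraries deviated from their group means with correlations of -0.11, 0.04 and -0.08. Called members numbered 1 of 6 tested (Bbc3) at a mean of at least 5 FPKM and 2 of 8 tested (Bbc3 and Bax) under TPM. They numbered 0 in the other 11 alternatives, including each library left out. Bax had a log2 change of 0.38 under TPM (adjusted p = 0.0335), 0.19 above the shift. Over all alternatives the log2 change of Bbc3 lay between 0.46 and 0.76 and its adjusted p between 0.0157 and 0.252. Dynll1 and Myc lost their calls without a minimum level alone (adjusted p = 0.0741 and 0.108). Tmbim6 lost its call there (adjusted p = 0.0926), without a trend (0.0610), with the block (0.0501) and without library 2 labelled knockout. Tradd was called at a mean of at least 5 FPKM and under TPM. Under TPM alone Bnip3l, Diablo, Dffa, Endog and Ube2s were called as well. Egr1 lost its call in 8 and Runx3 in 9 of 13 alternatives. Signs turned, without a call on either side, under TPM for Bcl2l1 (0.15), Birc2 (0.0538), Xiap (0.0373), Gsk3a (0.0250) and Dynll2 (0.0427). Relative to the shift they kept their sign (-0.04, -0.138, -0.155, -0.167 and -0.149). With a library left out, Mcl1 ranged from -0.0548 (library 1 labelled knockout) to 0.107, with -0.02 without control library 3, and Bid from -0.0352 (control library 3) to 0.0913. The ratio of mean summed levels, labelled knockout to control, was 1.00 for the anti-apoptotic genes and 0.959 to 1.04 with a library left out. For the BH3-only genes it was 1.13 and 1.08 to 1.16, and for the effectors 1.11 and 1.05 to 1.19. The cause of these differences was not tested. Bmf and Pmaip1, at 2 to 44 reads, are limited by depth.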
